A study of Caenorhabditis elegans with 2 samples.

Results

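The cuticle collagen genes of Caenorhabditis elegans were examined for recovery of the zinc finger protein ZTF-4 near their start sites. The members are all protein-coding genes of the WBcel235 annotation named col- with a number, together with rol-6, sqt-1, sqt-2, sqt-3, bli-1 and bli-2. This gave 162 of 19973 nuclear protein-coding genes, of which 156 are col- genes. The chromatin came from whole L2 larvae of strain OP322, genotype unc-119(ed3) III; wgIs322, in which an inserted transgene carries ztf-4 fused to eGFP, with both sexes mixed; the labels name ztf-4 as the target of the antibody. The series has 1 group of 2 biological replicates, and the size range given for the libraries is 150 to 350 bp. Both replicates carry the unc-119 mutation and the insertion, the labels do not name the promoter that drives the transgene, and the control they name was not analysed here. There is therefore no second condition, and the values describe where the tagged protein was recovered in whole animals, not in the skin alone.

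The authors deposited 30000 regions for each replicate and 30000 for the pooled replicates, lists that hold background as well as binding, and 1794 peaks that passed their threshold on the irreproducible discovery rate (a measure of rank agreement between replicates), called IDR peaks here. Each region has a signal value of the authors' own, with no stated scaling, so signals and ranks (rank 1 is the highest signal) are compared only within a list. Signals ran from 15.1 to 843.0 in the pooled list with a median of 22.5, from 8.99 to 401.2 in replicate 1 and from 8.37 to 459.5 in replicate 2. The lowest IDR peak had a signal of 60.2. Library depth is unknown. Each gene was credited with the regions whose summits were at most 500 bp from one of its annotated start sites.

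The cuticle is the collagen-rich coat that the skin of the worm, the hypodermis, secretes and rebuilds at every moult. Cuticle collagens are short proteins built on repeats of glycine and 2 further amino acids; their chains are hydroxylated and folded in the endoplasmic reticulum, trimmed at their ends, assembled as triple helices and cross-linked through tyrosines outside the cell. Each larval stage transcribes these genes in successive pulses between moults, and particular collagens are used at particular stages. Mutations in single collagens change body shape, which is how the rol, sqt and bli genes got their names (roller, squat and blistered worms).

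Few collagen genes had a strong ZTF-4 region near a start site. An IDR peak lay within 500 bp of the start of 1 collagen gene, col-38, which is 0.617% of the 162 (95% Wilson interval 0.109 to 3.41%), against 1033 of the 19811 other protein-coding genes (5.21%). Any region of the pooled list lay near 31 collagen genes (19.1%, 13.8 to 25.9%), against 34.1% of the other genes. Replicate 1 had a region near 33 collagen genes (20.4%, 14.9 to 27.2%), against 34.6% of the other genes, and replicate 2 near 30 (18.5%, 13.3 to 25.2%), against 35.6%. All 3 lists had one near 18 collagen genes (11.1%, 7.14 to 16.9%), against 22.0% of the other genes. The collagen share was thus below the share of the other genes in each list, replicates included. These shares are given as descriptions with no test, since neighbouring genes can share a region, and the intervals treat genes as independent. Of the 162 collagen genes, 140 (86.4%) have a single annotated start site, against 72.5% of the other genes, so fewer windows were searched per collagen gene. With the most 5′ start site alone, 31 collagen genes (19.1%) had a pooled region, against 31.4% of the other genes.

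**Figure D1:**
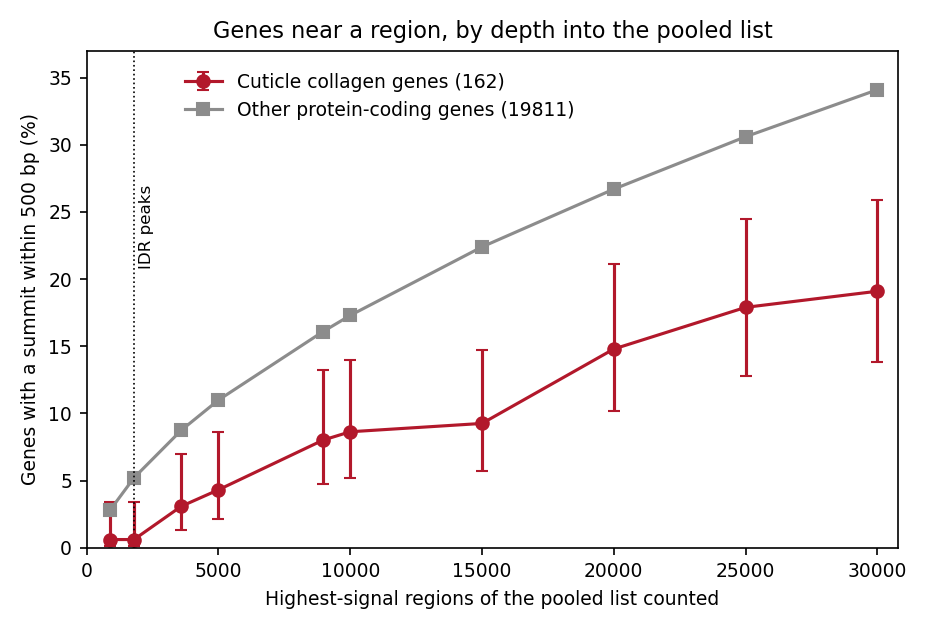
The vertical axis gives the percentage of genes with a pooled summit within 500 bp of a start site, and the horizontal axis how many of the highest-signal pooled regions were counted. Red points are the 162 collagen genes with 95% Wilson intervals, grey squares the 19811 other protein-coding genes, and the dotted line marks 1794 regions, the number of IDR peaks; at 10000 regions the shares were 8.64% of collagen genes and 17.3% of the others.

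The collagen share was below that of the other genes at each depth counted from the top of the pooled list. At the 897 highest regions it was 0.617% (0.109 to 3.41%), against 2.83%, a value inside that interval. These counts are cumulative, so the deeper ones carry the gap of the shallower ones. Ranks 15001 to 20000 alone held the highest region of 9 of the 162 collagen genes and 839 of the 19811 others, a higher share of the collagens. It was the only band of 5000 ranks to do so, was picked after the values were seen, and holds the region shared by col-159 and col-160. Ranks 10001 to 15000 held that of 1 collagen gene and 1024 others, a lower share. Among the 5000 highest regions, 7 collagen genes (4.32%) had one, against 2174 of the 19811 other genes, and among the 15000 highest, 15 collagen genes (9.26%), against 22.4%. Where a collagen gene did have a region, its highest signal had a median of 22.2 over the 31 genes (range 15.4 to 107.1, 95% binomial interval of the median 21.1 to 34.6), against 27.3 for the other genes with a region, a value inside that interval. The median rank was 15413 for the collagen genes and 9858.5 for the others. As a percentile of the list that is 51.4 (interval 19.3 to 57.3) for the collagen genes, against 32.9, again inside the interval. Median ranks in replicate 1 were 11523 at collagen genes and 10834 at the others, and in replicate 2 12000.5 and 10051. The median signals there were close, with a signal of 14.7 at collagen genes against 15.1 at the others in replicate 1, and of 14.1 against 15.4 in replicate 2.

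The single IDR peak among the collagens was at col-38 (WBGene00000615), a collagen gene on the minus strand at II:8568035-8569088 on ce11. The peak, at II:8569351-8569714, had a signal of 44.3 (rank 732) in replicate 1, 57.9 (rank 568) in replicate 2 and 107.1 (rank 524) in the pooled list. The replicates placed its summit 1 bp and 0 bp from the pooled summit. That summit was 445 bp upstream of col-38 but 394 bp upstream of rpl-5, a gene for a component of the large ribosomal subunit that is transcribed the other way, the start sites lying 839 bp apart. It also fell within exons of the noncoding RNA genes F54C9.16 and F54C9.17, 29 bp from the start of F54C9.17. The peak was therefore nearer to the start sites of a ribosomal protein gene and a noncoding gene than to that of the collagen. The distance does not tell which of these genes, if any, the protein acts on.

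The next 3 collagen genes by pooled signal were col-2, col-147 and col-85, and the DNA at the summits of these 4 is shown because they carried the highest signals of the family. Each line is 151 bases centred on the pooled summit, read 5′ to 3′ on the strand of the collagen gene (minus in all 4) from the RefSeq copy of WBcel235, the assembly also called ce11. Capitals mark the words GAGCGC and CGTCTC (here as its reverse complement GAGACG) at col-2 and ACGCAG (as CTGCGT) at col-147, words that earlier results of these data found often near IDR summits; at col-85 they mark a tRNA gene. The windows are II:8569458-8569608, IV:10085786-10085936, V:9633467-9633617 and II:12494732-12494882 in the order printed.
col-38: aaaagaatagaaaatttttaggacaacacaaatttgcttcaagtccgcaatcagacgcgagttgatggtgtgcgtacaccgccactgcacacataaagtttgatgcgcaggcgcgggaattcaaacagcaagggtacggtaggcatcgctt
col-2: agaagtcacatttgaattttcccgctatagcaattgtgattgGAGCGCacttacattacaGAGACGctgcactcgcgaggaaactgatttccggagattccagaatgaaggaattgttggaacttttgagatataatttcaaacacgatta
col-147: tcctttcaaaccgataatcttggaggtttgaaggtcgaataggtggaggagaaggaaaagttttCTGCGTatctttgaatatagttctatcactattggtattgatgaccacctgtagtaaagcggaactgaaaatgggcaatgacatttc
col-85: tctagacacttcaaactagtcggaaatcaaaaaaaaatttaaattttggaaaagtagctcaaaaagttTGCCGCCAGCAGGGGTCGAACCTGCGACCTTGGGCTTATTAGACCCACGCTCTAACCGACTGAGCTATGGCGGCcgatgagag

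Of these windows, those of col-38 and col-85 held none of the words searched. At col-2, a gene known for expression in the dauer larva, the region IV:10085679-10086042 had signals of 20.5 (rank 4935) in replicate 1, 31.0 (rank 2205) in replicate 2 and 54.6 (rank 2190) in the pooled list. Its summit was 410 bp upstream of col-2 and 276 bp upstream of the divergent gene ndc-80, which encodes a kinetochore protein. At col-147 the region V:9633360-9633723 had 24.0 (rank 3296) in replicate 1, rank 7145 in replicate 2 and 46.5 (rank 3084) in the pooled list, with its summit 204 bp upstream of the collagen and 168 bp from the noncoding gene T06E4.17. At col-85 the values were 25.3, 22.3 and 45.5 (rank 3200) in the same lists. The col-85 summit lay inside the gene, 288 bp downstream of its start, within a tRNA gene at II:12494741-12494814 on the opposite strand that starts 66 bp away. All 4 summits were thus closer to the start of another gene than to that of the collagen.

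Just below them were col-83, col-153 and col-54. The col-83 summit lay in an intron of col-83 itself, 332 bp downstream of the start, with signals of 19.5 in replicate 1, 20.3 in replicate 2 and 43.7 (rank 3491) in the pooled list. At col-153 the summit was 342 bp upstream in intergenic DNA, with 22.9, 18.6 and 41.6 (rank 3891). The col-54 summit was 467 bp downstream of the start, in an intron and 21 bp from the start of a tRNA gene, with 16.7 in replicate 2 and 37.2 (rank 4957) in the pooled list. Replicate 1 gave 23.7 there with its summit at 274 bp, away from the tRNA start. Of the collagen genes with a region among the 5000 highest, only col-83 and col-153 had no nearer start site of another gene.

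Counted over all kinds of gene, another start site was nearer to the summit at 8 of the 31 collagen genes with a region (25.8%), against 17.4% of the 6764 other genes with one. The nearer gene was protein-coding at 2 collagen genes (6.45%, against 9.67%) and a tRNA gene at 2 (6.45%, against 0.739%). Genes for piRNAs, short germ-line RNAs whose genes lie in dense clusters on chromosome IV, were nearer at 3, col-2, col-133 and col-138 (9.68%, against 2.03%). Noncoding RNA genes of other kinds were nearer at 4, col-38, col-147, col-85 and col-54 (12.9%, against 6.49%), and a pseudogene, 128 bp from the summit at col-104, at 1 (3.23%, against 0.118%). A gene with several nearer neighbours is in more than 1 of these counts. Split by rank, the count was 5 of 7 collagen genes among the 5000 highest regions (71.4%), against 26.1% of the other genes there, and 3 of 24 further down (12.5%), against 13.3%. That split was chosen after the values were seen, and it rests on 7 genes.

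**Figure D2:**
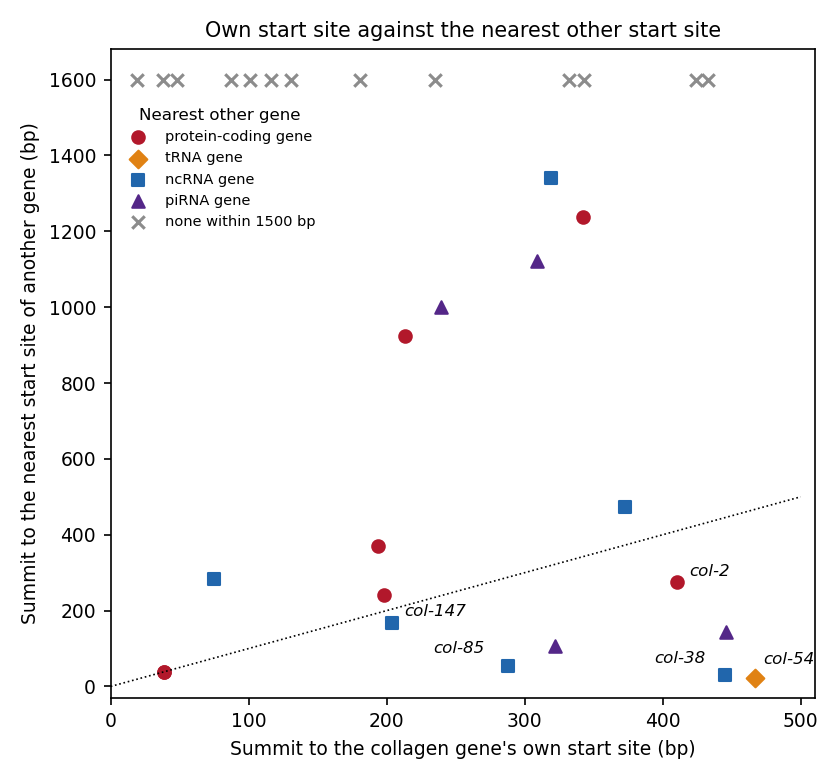
For each of the 31 collagen genes with a pooled region, the distance from the summit to its own start site (horizontal, bp) is set against the distance to the nearest start site of another gene (vertical, bp), coloured by the kind of that gene; pseudogenes are left out, and crosses at the top have no other start within 1500 bp. Points under the dotted line of equal distance, such as col-38, col-2, col-85 and col-54, lie closer to another gene.

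The other 24 genes with a pooled region ranked from 5343 to 29355. Of all 31, 7 ranked within 5000, 7 from 5001 to 10000, 1 from 10001 to 15000, 9 from 15001 to 20000, 5 from 20001 to 25000 and 2 from 25001 to 30000. The other genes with a region were more evenly spread, with 32.1% of them in the top band against 22.6% of the collagens, and 12.4% from 15001 to 20000 against 29.0% of the collagens. Between ranks 5001 and 10000 were col-167 (14.8 in replicate 1, 17.3 in replicate 2, 35.9 pooled), col-103 (14.7, 23.9 and 34.9), col-164 (17.9, 14.3 and 34.6), col-72 (15.6, 18.8 and 34.2), col-94, col-93 and col-10. At col-10, 2 pooled regions lay upstream, 235 and 437 bp from the start, the higher with 17.7 in replicate 1, 22.2 in replicate 2 and 27.4 in the pooled list (rank 9742).

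Some collagens lie beside or within each other. The genes col-92, col-93 and col-94 all lie within an intron of dhc-4, a dynein heavy chain gene, and had pooled signals of 15.4, 29.7 and 32.2, with summits 424, 181 and 116 bp upstream. Replicate 1 gave 20.8 at col-93 and 21.1 at col-94 and had no region near col-92; replicate 2 gave 13.2, 13.9 and 10.7 at the 3 genes. A further region of that intron, an IDR peak with a signal of 208.0 (rank 98), was 1740 bp upstream of col-94 and 66 bp from the small nuclear RNA gene R07E5.16. The genes col-159 and col-160 overlap on the same strand and shared 1 region in an intron of both, 39 bp from an annotated start of each, with a pooled signal of 21.2, 11.7 in replicate 2 and no region in replicate 1. Of the 51 collagen genes with another collagen start within 5 kb, 10 had a pooled region (19.6%), and of the remaining 111, 21 did (18.9%).

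**Figure D3:**
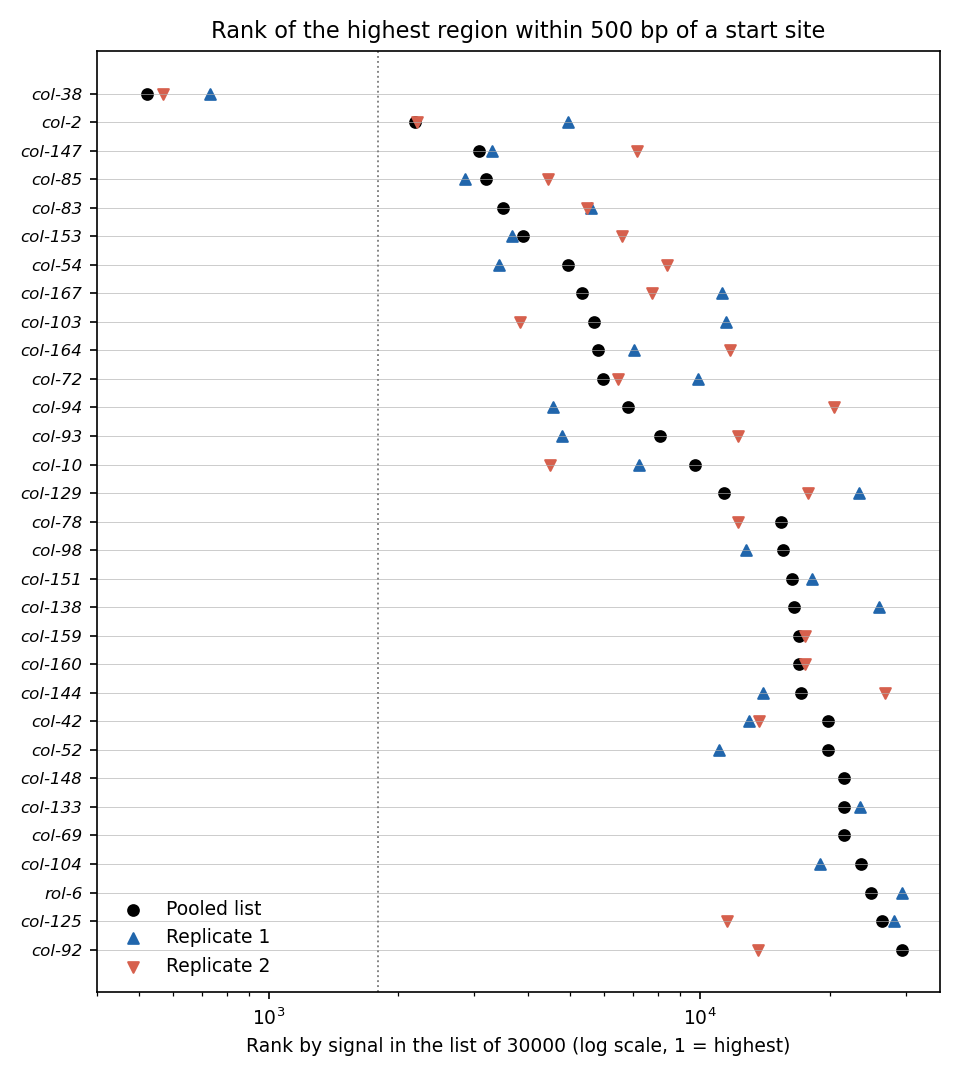
The 31 collagen genes with a pooled region run down the page by signal, and the horizontal axis (log scale) gives the rank of the highest region within 500 bp in the pooled list (black circles), replicate 1 (blue) and replicate 2 (red); a missing symbol means no region in that list. The dotted line is rank 1794, the number of IDR peaks, and only col-38 lies left of it, in all 3 lists.

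The replicates shared the upper end of the family and part of the rest. Counted by gene, the best pooled region overlapped a region of replicate 1 at 24 of the 31 collagen genes and a region of replicate 2 at 21. It overlapped both at 16 and neither at 2, col-148 and col-69. The region shared by col-159 and col-160 is counted for each of them. Where both replicates overlapped, their summits were a median of 69 bp apart (1 to 211 bp). Overlap was not counted for the other genes, and the pooled list holds the replicates' own reads. The overlap counts therefore do not tell whether such recurrence is unusual. Counted by summits within 500 bp of a start, 18 of the 31 collagen genes with a pooled region had one in both replicates. The same held for 4368 of the 6764 other genes with a pooled region. A further 14 collagen genes had a region in a replicate but none in the pooled list, which brings the genes with a region anywhere to 45 (27.8%, 21.5 to 35.1%), against 47.9% of the other genes; the remaining 117 (72.2%) had none. The highest of these was col-71, with 36.2 (rank 1187) in replicate 1, its summit at -278 bp, and no overlapping region in the pooled list or within 500 bp of its start in replicate 2. The genes col-9 and col-177 had a region in both replicates but not in the pooled list, with 14.1 and 11.6 in replicate 1 and 14.9 and 8.55 in replicate 2. The replicates' summits were on different sides of the col-177 start, at +111 and -434 bp, and at +474 and +26 bp of the col-9 start.

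Of 13 collagens picked by name, among them those best known from mutants and reporters, 11 had no pooled region within 500 bp. Of the other protein-coding genes, 65.9% had none in the pooled list. The same 11 had no region in any list, while 47.9% of the other genes had a region in at least 1 list. The 2 with a region were col-10, described above, and rol-6. For rol-6, whose right roller alleles twist the body and serve as a marker in transgenesis, a summit lay in a coding exon, 100 bp downstream of the start with a signal of 9.11 (rank 29397) in replicate 1 and 75 bp downstream with 17.1 (rank 24960) in the pooled list, near the bottom of both, and replicate 2 had none. The genes sqt-1, sqt-2 and sqt-3, which set body shape, and bli-1 and bli-2, which encode components of the adult cuticle's struts, had no summit within 500 bp in any list. The same held for col-19, an adult-stage collagen used as a reporter of the larval to adult switch, for col-12 and its near copy col-13, for col-17 and col-34, and for col-99, a collagen with a membrane-spanning segment. The nearest pooled summit was 787 bp from sqt-2 (signal 22.1), 2158 bp from sqt-1 (19.2) and 4696 bp from sqt-3 (17.8). It was 9250 bp from bli-1 (20.7), 8046 bp from bli-2 (20.8) and 4450 bp from col-19 (21.4). For col-12 it was at 1298 bp with a signal of 42.8 (rank 3654), with 18.4 in replicate 1 and 23.9 in replicate 2, the highest of these pooled signals. In replicate 1 alone, the nearest summits of sqt-2 (36.2), col-34 (25.9) and col-99 (19.5) had higher signals than that of col-12. In the pooled list the remaining 4 lay at 996 bp for col-13, 1267 bp for col-17, 1156 bp for col-34 and 2549 bp for col-99.

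Many promoters of the family hold a TATA word, at similar shares with and without a ZTF-4 region. The word TATAAA, the core of a TATA box, was present on the gene's strand in the 150 bases before the most 5′ start of 85 of 162 collagen genes (52.5%), against 16.1% of the other protein-coding genes. On either strand, counted with its reverse complement TTTATA, it was present in 57.4% and 25.1%. It was present before 17 of the 31 collagen genes with a pooled region (54.8%) and before 68 of the 131 without one (51.9%). Among the other genes it was found in 12.7% of those with a pooled region and in 9.10% of those with an IDR peak. Median GC content of the same 150 bases was 37.3% in the collagen genes and 32.7% in the others. Worm transcripts are often trans-spliced, which can put the annotated start downstream of the true one, so the distance to the word is a distance to the annotation.

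Shown are promoters of col-10, which had a region, and of col-19, col-34 and bli-2, which had none, all with the word in capitals, and that of rol-6, which lacks it. They are the 150 bases before the annotated start on the gene's strand, from the same assembly, at V:9165308-9165457 (minus), X:421557-421706 (plus), IV:4244611-4244760 (minus), II:5652435-5652584 (minus) and II:8732900-8733049 (plus). The word begins 29 bases before the annotated start in col-10, col-19 and col-34 and 43 before it in bli-2.
col-10: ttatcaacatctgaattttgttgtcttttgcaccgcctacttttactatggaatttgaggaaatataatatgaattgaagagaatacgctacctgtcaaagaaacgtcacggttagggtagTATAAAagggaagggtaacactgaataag
col-19: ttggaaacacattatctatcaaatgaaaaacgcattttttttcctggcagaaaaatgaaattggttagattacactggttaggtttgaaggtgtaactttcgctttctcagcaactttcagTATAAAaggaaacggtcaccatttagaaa
col-34: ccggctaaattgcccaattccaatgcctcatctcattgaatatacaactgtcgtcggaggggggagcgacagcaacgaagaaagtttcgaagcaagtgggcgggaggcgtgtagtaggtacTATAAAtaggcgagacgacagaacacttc
bli-2: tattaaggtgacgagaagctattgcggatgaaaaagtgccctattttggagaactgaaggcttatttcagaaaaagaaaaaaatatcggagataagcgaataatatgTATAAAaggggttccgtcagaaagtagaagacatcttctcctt
rol-6: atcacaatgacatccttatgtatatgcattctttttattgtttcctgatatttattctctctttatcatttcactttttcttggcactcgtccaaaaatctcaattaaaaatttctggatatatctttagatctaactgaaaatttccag

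In position, the best summits of the 31 collagen genes spread over the whole window, with the summit shared by col-159 and col-160 counted for each. The median offset was -181 bp (range -446 to 467, negative meaning upstream), against -132.5 bp for the other genes, and 20 summits were upstream (64.5%, against 69.1%). By annotation, 12 were intergenic (38.7%, against 51.7%), 9 in an intron (29.0%, against 22.4%), 6 in a coding exon (19.4%, against 12.7%), 2 in an untranslated exon (6.45%, against 10.1%) and 2 in an exon of a noncoding gene (6.45%, against 3.12%). The untranslated exons belonged to lsy-2, beside col-164, and dlc-2, beside col-129. Coding exon summits were at col-103, col-144, col-42, col-78, col-98 and rol-6. GC content within 50 bp of the summit had a median of 34.7% (16.8 to 57.4%), against 36.6% at the other genes. The lowest, 16.8%, was at col-92, with a pooled signal of 15.4. The highest, 57.4%, was at col-98, with 22.1, close to the collagen median of 22.2.

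**Figure D4:**
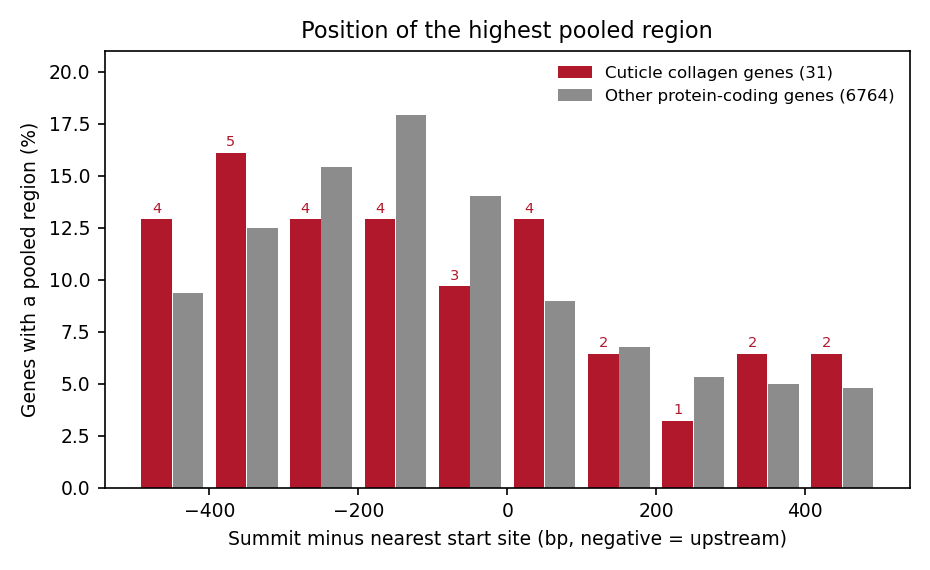
Position of the highest pooled summit relative to the start site, in bp along the horizontal axis with upstream to the left, for the 31 collagen genes and, for comparison, the other protein-coding genes with a region. The collagen summits run from -446 to 467 bp with a median of -181 bp.

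Sequence words that earlier results of these data found near IDR summits were searched on both strands within 50 bp of the summit, in 30 distinct collagen regions and 6137 regions near other genes only. GAGAGA was in 2 collagen regions (6.67%, Wilson interval 1.85 to 21.3%), against 11.6% of the regions near other genes. CGTCTC was in 1 (3.33%, 0.591 to 16.7%), against 6.86%, and GAGCGC in 1 (3.33%), against 4.82%. ACGCAG went the other way, in 3 of the 30 collagen regions (interval 3.46 to 25.6%), a higher share than the 5.87% near other genes. GACGCA, which overlaps ACGCAG by 5 letters, was in 0 of 30 (Wilson upper limit 11.4%), against 6.29%. At least 1 of the 5 words was in 5 collagen regions (16.7%, 7.34 to 33.6%), at col-2, col-147, col-72, col-98 and col-103, against 23.2%. Each collagen interval holds the share near other genes, so no difference was detectable over 30 regions. Among the 1794 pooled regions of highest signal, 48.0% held at least 1 of the words, a share that the choice of the words from IDR summits fixes in part.

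The family is spread over all 6 chromosomes. A pooled region was near 2 of 21 members on chromosome I (9.52%, against 40.5% of the other genes there), 7 of 29 on II (24.1%, against 29.7%), 4 of 12 on III (33.3%, against 43.9%), 7 of 41 on IV (17.1%, against 35.7%), 9 of 32 on V (28.1%, against 27.1%) and 2 of 27 on X (7.41%, against 34.5%). Chromosome V was the exception, with the collagen share a little above that of its other genes. Some collagens are near copies of each other, and reads from such copies can be hard to place. More than 10% of the 31-base words within 500 bp of the start recurred elsewhere in the genome at 37 collagen genes (22.8%), against 12.1% of the other genes. The sources used here do not say how the authors treated reads with several matches. Such genes were 9 of the 31 with a pooled region (29.0%) and 28 of the 131 without (21.4%). With them left out, 22 of 125 collagen genes (17.6%) had a pooled region, against 36.9%, and 1 (0.800%) an IDR peak, against 5.68%.

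Distances beyond 500 bp were also examined. The median distance from a start to the nearest IDR summit was 28625 bp for the collagen genes and 27598 bp for the others, and to the nearest pooled summit 2467 and 1329 bp. Counts within 2000 bp include those within 500 bp, where 1 collagen gene and 1033 others had an IDR peak. They therefore carry that gap and do not show a gap beyond 500 bp. An IDR peak lay within 2000 bp of 8 collagen genes (4.94%), against 1902 of the 19811 others (9.60%). Besides those of col-38 and col-94, these were peaks at 928 bp from col-8 (signal 62.7), in an intron of rfl-1, and at 1470 bp from col-119 (69.9), in an intron of pdzd-8. The peak 1321 bp downstream of the sqt-2 start (61.9) was 20 bp from the start of enee-1, and that 1260 bp downstream of the col-42 start (64.6) was 560 bp from egas-1. A single peak (62.4) lay between col-10 and col-145, 1167 bp and 1135 bp from their starts.

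Genes that act on collagens were set beside the family from 6 lists. Of 14 other cuticle collagens, such as the dpy genes, 2 had a pooled region (14.3%, Wilson interval 4.01 to 39.9%) and 0 an IDR peak (upper limit 21.5%). These were dpy-3, with 12.1 in replicate 1, no region in replicate 2 and 34.2 pooled, and bli-6, with 27.7, 21.8 and 51.7, whose summit was nearer to the start of hrpf-2 (207 bp) than to its own (offset -335 bp). Of 18 cuticlins and apical matrix genes, 4 had a pooled region (22.2%, Wilson upper limit 45.2%) and 0 a peak (upper limit 17.6%). The highest of these signals, 35.2, was at lrp-1, which encodes an endocytic receptor of the hypodermis and no part of the coat. Of 4 basement membrane and other collagens, 2 had a region, let-2 and cle-1, and 0 a peak (upper limit 49.0%). The intervals of the cuticle collagen and cuticlin lists hold the 34.1%, and the upper limits of all 3 the 5.21%, of the other protein-coding genes, so no difference was detectable in lists of this size.

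The enzyme and regulator lists had shares above the 34.1% of the other protein-coding genes. Of 13 genes for hydroxylation and folding, 8 had a pooled region (61.5%, Wilson interval 35.5 to 82.3%) and 1 an IDR peak (7.69%, against 5.21% of the other protein-coding genes), at pdi-6, a protein disulfide isomerase, with 35.1 in replicate 1, 55.1 in replicate 2 and 89.6 pooled, 50 bp upstream of the start. Of 19 genes for processing and cross-linking, 9 had a region (47.4%, 27.3 to 68.3%, which holds 34.1%) and 1 a peak (5.26%, a share at that of the other genes), at dpy-11, a thioredoxin-like protein of the secretory pathway, with 40.0, 52.9 and 95.0, 94 bp downstream. Of 19 regulators of collagen or cuticle genes, 16 had a region (84.2%, 62.4 to 94.5%) and 4 a peak (21.1%, against 5.21%). These peaks were at lin-28, an RNA-binding protein of developmental timing (82.2, 82.2 and 161.9, 33 bp upstream), at the membrane-tethered transcription factors myrf-2 (71.0, 63.9 and 134.1) and myrf-1 (49.8, 44.5 and 94.2), and at sma-9, a factor of body size signalling (26.9, 45.9 and 69.7). None of these 6 summits had another protein-coding start within 1000 bp. Starts of noncoding genes were not counted there, unlike at the collagen summits. The hormone receptor gene nhr-23, which drives moulting, and the hypodermal GATA factor gene elt-3 had pooled signals of 45.3 and 42.9, under the lowest IDR peak. The lists differ in gene size and number of start sites, whose part in these shares was not tested. They were also chosen with earlier results of these data known, so these shares and intervals are descriptions and not independent support.

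**Figure D5:**
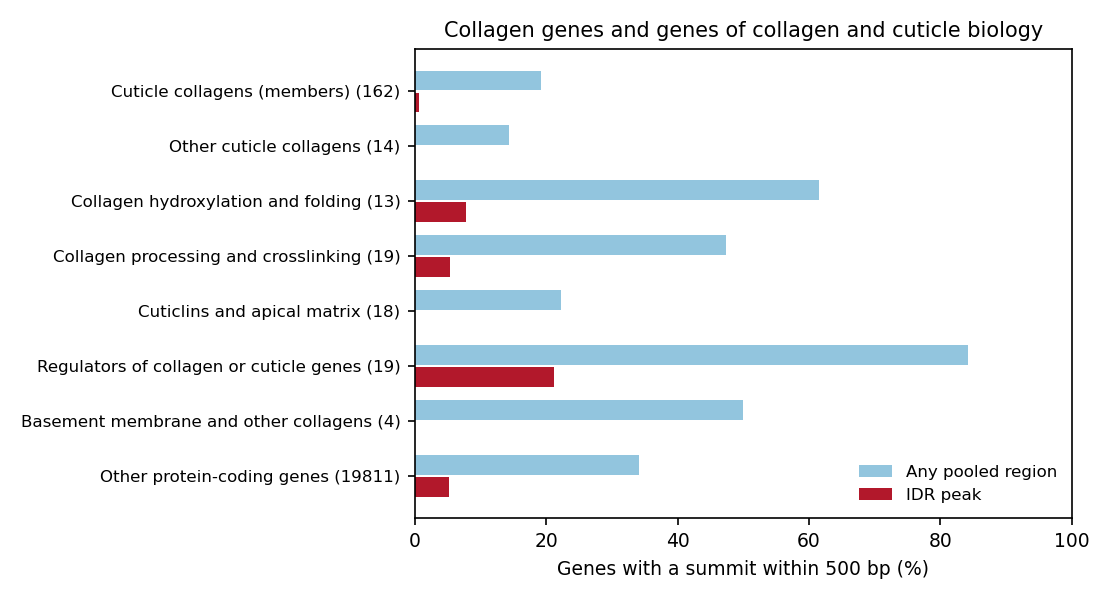
Percentage of genes with a pooled region and with an IDR peak within 500 bp of a start site, for the 162 collagen genes, the 6 lists of related genes and the other protein-coding genes. With a pooled region the collagen genes are at 19.1%, the regulators at 84.2% and the other protein-coding genes at 34.1%.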

How the data were processed

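Per the labels, ChIP-seq against eGFP-tagged ZTF-4 was done in 2 biological replicates of L2 larvae. Per the deposited listing of file derivations, region lists came from each replicate's alignments, or both pooled, with a control, and the IDR peaks from those lists. The sources used here do not give the aligner, the peak caller, their versions, read filters or the IDR threshold. Column 7 is the authors' deposited signal, of unstated scaling. Column 9 was read as the deposited −log10 q-value from the column order and supports no result. Depth is unknown.

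Positions are on ce11; the ce10 copies were not used. Gene starts came from Ensembl release 115 (WBcel235) and sequence from RefSeq. Summits were column 2 plus column 10, and scripts (Python 3.11.15, numpy 2.4.6, pandas 2.3.3, scipy 1.17.1) were tested on simulated data. Shares carry 95% Wilson intervals over genes; with 1 group, no test was run. Named genes were collagens with an IDR peak, the 25 with the highest pooled signal, 13 known collagens and related genes with an IDR peak; others named were chosen after their values were seen. Members and lists, including the sequence words, were chosen with earlier results of these data known. From the lists, ram-4, elt-5 and let-7 matched no protein-coding gene name and were not counted. Alternatives were windows of 250 and 1000 bp, the most 5′ start, overlap in place of summits, each replicate alone, other depths of the pooled list, the wider collagen list, and, added after seeing the data, genes with recurring sequence left out.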

Additional observations from a re-analysis of the deposited data

How the results depend on the processing

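The collagen share was below that of the other protein-coding genes under every alternative run for the 3 counts. The 1000 bp window contains the 500 bp window, and the deeper counts in place of the IDR peaks contain the shallower ones. Those alternatives therefore carry the gap of the main counts and do not tell whether there is a gap beyond 500 bp or further down the list. The median signal (21.2 to 25.6 across 5 alternatives, against 26.9 to 27.3) stayed within the interval of its main value. With windows of 250 and 1000 bp, a pooled region was near 17 (10.5%, against 22.2%) and 48 (29.6%, against 45.2%) collagen genes, an IDR peak near 0 (against 3.26%) and 2 (1.23%, against 6.90%), and a region of all 3 lists near 4 (2.47%, against 2370 of the 19811 other genes) and 28 (17.3%, against 32.5%). The 15000 highest regions gave 15 (9.26%, against 22.4%). In place of the IDR peaks, 2 and 5 times as many pooled regions gave 5 (3.09%, against 8.75%) and 13 (8.02%, against 16.1%). Without genes of recurring sequence, chosen after seeing the data, all 3 lists had a region near 11 of 125 collagen genes (8.80%, against 24.0%). Replicate 1 alone gave 33 collagen genes with any region (20.4%, against 34.6%) and replicate 2 alone 30 (18.5%, against 35.6%). With as many top regions as IDR peaks, replicate 1 gave 2 (1.23%, against 4.84%), the second gene being col-71. Replicate 2 gave 1 (0.617%, against 5.25%). The pooled list together with replicate 1 gave 25 (15.4%, against 27.0%), and with replicate 2 it gave 22 (13.6%, against 27.9%). The pooled list holds the reads of both replicates, so these last counts leave neither replicate out fully. The median percentile of rank was 51.4 in the pooled list and 38.4 and 40.0 in the replicates, against 32.9, 36.1 and 33.5 for the other genes. No paired analysis was possible because the series has 1 group. With 2 replicates and unknown depth, no interval covers the spread between libraries or the counting of reads, and a gene without a region may have signal under the limit of a list.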
